A study of Homo sapiens with 6 samples.

Results

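Serum response factor, encoded by SRF, and 9 genes of the contractile apparatus were followed in A375 cells, a human melanoma line long kept in culture, after exposure to panobinostat, an inhibitor of histone deacetylases. The 10 genes were taken by symbol from the deposited table of counts (SRF, ACTA2, TAGLN, CNN1, MYL9, TPM1, TPM2, CALD1, VCL and GSN), which held 25343 gene lines, and all 10 symbols were present. Parental A375 cells had been given 50 nM panobinostat for 24 h (3 libraries) or vehicle, an equal volume of PBS (3 libraries), and bulk RNA was sequenced. No label says whether the libraries came from separate cultures, so each p-value speaks for the variation among the libraries alone, and that may be technical. In bulk RNA, fewer cells of a kind and less RNA per cell cannot be told apart.

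SRF is a transcription factor that binds a short element, the CArG box, through a MADS domain. Its partners decide which targets it serves: the myocardin-related factors, which are held in the cytoplasm by monomeric actin and released when actin polymerizes, direct it to cytoskeletal and contractile genes, and the ternary complex factors of the ELK family direct it to immediate early genes. Smooth muscle alpha-actin (ACTA2), transgelin (TAGLN), calponin (CNN1) and the regulatory light chain MYL9 are well-known targets in smooth muscle and in myofibroblasts, and SRF is itself one of its own targets. Melanoma cells are not smooth muscle, but they use actin, tropomyosin and adhesion proteins of the same family for shape and movement.

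Total counts were 32293283 to 36201208 in the panobinostat libraries and 34738362 to 38944399 in the vehicle libraries, and a gene with 3 counts stood at 0.077 to 0.0929 CPM (counts scaled by library size). The check of the cell line against markers of melanocytic cells was mixed: SOX10 stood at 368 ± 21.8 CPM with panobinostat and 813 ± 56.3 CPM in vehicle (SD, n = 3 each), and PMEL, a structural protein of melanosomes, at 194 ± 9.46 CPM with panobinostat and 0.628 ± 0.118 CPM in vehicle. MITF, S100B and S100A1 stood at 53.5 ± 2.23, 71.9 ± 0.877 and 108 ± 6.70 CPM in vehicle. With panobinostat they stood at 33.2 ± 0.716, 11.4 ± 0.575 and 67.9 ± 1.38 CPM. TYRP1 and DCT were low, at 0.235 and 0.110 CPM in vehicle and 0.448 and 0.293 CPM with panobinostat. MLANA and TYR, pigment cell markers, had 0 counts in the 6 libraries.

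The promoters that RefSeq gives for the 10 genes are shown because they hold, or lack, the element through which SRF acts. The window ran from 250 bases before to 50 bases after each annotated start in GRCh38.p14. For 8 of the 10 genes there were 19 such windows, since several genes have more than 1 start. No window was matched for TAGLN or MYL9, so their promoters were not searched. An exact CArG box, that is CC and GG around 6 bases that are each A or T, which reads the same on both strands, was in 1 of the 19 windows (5.26%), against 454 of the 35116 windows of all genes (1.29%). With 1 other base allowed in the A and T stretch, 3 of the 19 windows held it (15.8%), against 2854 windows of all genes (8.13%). The exact matches were a pair in SRF itself, and the inexact ones were a pair in ACTA2 and a single match in CALD1. No match in these windows says only that the letters are not there. The 250 bases before the start are printed below for the genes with a pair, 5′ to 3′ on the gene's own strand, with the matches in capitals: SRF at chr6:43171019-43171268 on the plus strand and ACTA2 at chr10:88952774-88953023 on the minus strand.
SRF: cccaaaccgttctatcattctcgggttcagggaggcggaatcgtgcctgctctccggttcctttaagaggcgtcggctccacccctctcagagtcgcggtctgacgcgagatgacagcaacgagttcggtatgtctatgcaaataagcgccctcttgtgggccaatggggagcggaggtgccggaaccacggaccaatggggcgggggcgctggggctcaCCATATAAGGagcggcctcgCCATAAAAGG
ACTA2: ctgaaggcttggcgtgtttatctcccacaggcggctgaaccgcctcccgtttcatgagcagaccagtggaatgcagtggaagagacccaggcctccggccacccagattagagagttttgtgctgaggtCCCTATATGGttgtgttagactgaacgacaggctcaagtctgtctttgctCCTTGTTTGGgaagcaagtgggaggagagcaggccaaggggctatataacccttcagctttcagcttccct
The SRF matches begin 30 and 10 bases before the start, and those of ACTA2 begin 121 and 71 bases before it. Each ACTA2 match carries a single G or C in the A and T stretch, and the ACTA2 window shown is that of the downstream of 2 annotated starts. The other ACTA2 window held neither form.

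The 10 genes divided evenly with panobinostat. ACTA2, TAGLN, CNN1, MYL9 and VCL rose, and TPM1, TPM2, CALD1, GSN and SRF fell, at a Benjamini-Hochberg adjusted p under 0.05 in edgeR's quasi-likelihood test over 15499 genes. All 10 passed the filter on low counts, CNN1 only through its panobinostat libraries. The background of calls was high: 82.8% of tested genes passed, 41.8% as higher and 41.0% as lower, so that 5 of 10 in each direction is close to the share among all genes. The groups' ranges did not overlap for the 10 genes, and for 83.4% of all tested genes. The median log2 fold change of the 10 genes, which is the midpoint between SRF and MYL9, was 0.27, against 0.01 for all genes tested. It was -0.30 with a filter of 5 CPM in 3 libraries, under which TAGLN and CNN1 were not tested. At least 2-fold changes were found for CNN1 and TAGLN (higher, 18.9% of all tested genes) and for TPM2 (lower, 11.7%). TAGLN was close to the 2-fold line (log2 1.04) and was under it without vehicle replicate 3 (log2 0.87).

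**Figure D1:**
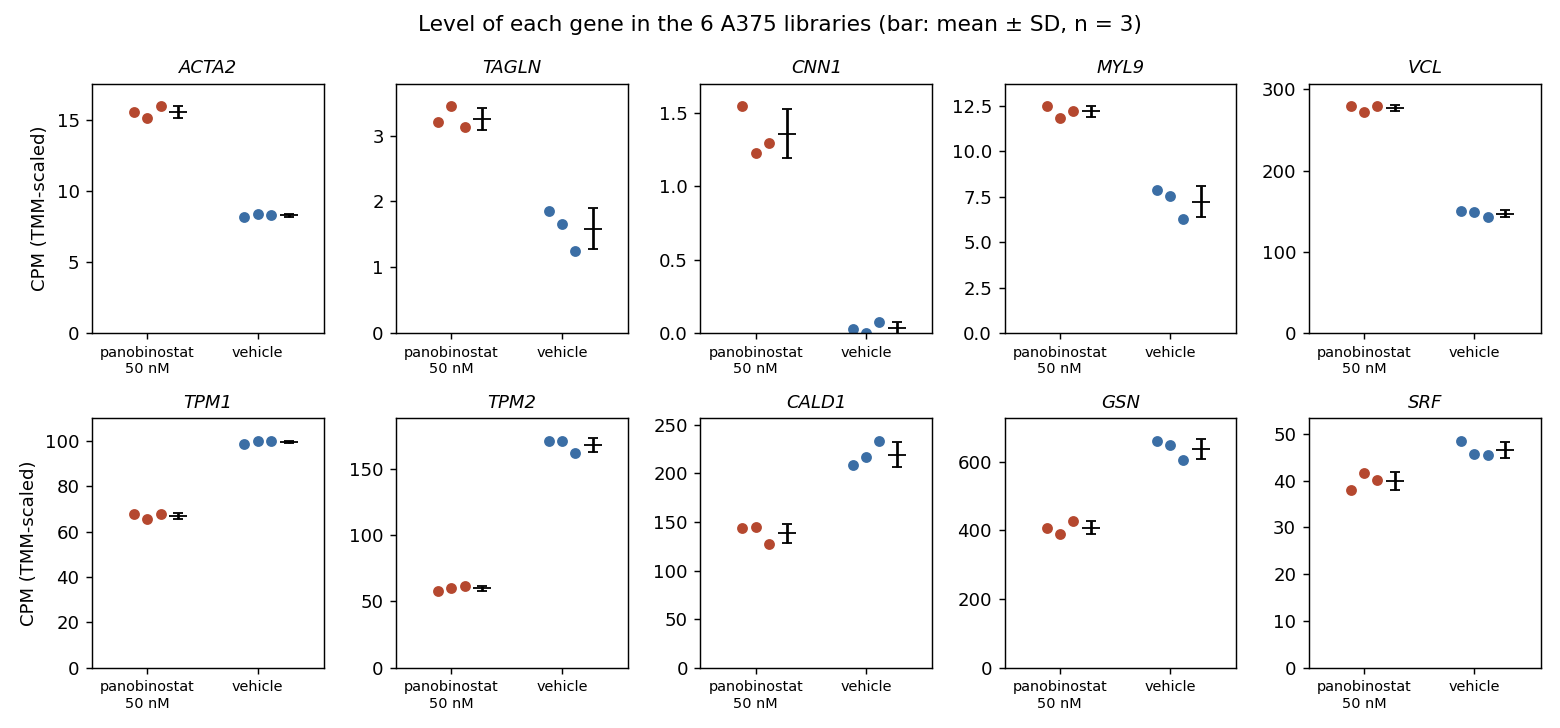
Level of each of the 10 genes in CPM (TMM-scaled, axis from 0) in the 3 panobinostat and 3 vehicle libraries; points are libraries and bars give mean ± SD (n = 3). In each panel the 3 panobinostat points lie wholly above or wholly below the 3 vehicle points.

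SRF, the transcription factor of the set, was lower by a small margin. It stood at 38.0, 41.7 and 40.1 CPM in the panobinostat libraries and at 48.5, 45.7 and 45.5 CPM in the vehicle libraries. Every panobinostat library was below every vehicle library, although the nearest libraries of the groups, at 41.7 and 45.5 CPM, were close. The log2 fold change was -0.22 ± 0.05 (SE, edgeR adjusted p = 0.000905), the smallest change among the 10 genes. With upper quartile scaling, which moved the median of all genes by 0.12, the change was -0.10 and lost its call (edgeR adjusted p = 0.0818).

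ACTA2, TAGLN and CNN1 rose. ACTA2, the smooth muscle isoform of actin, had 15.6, 15.1 and 15.9 CPM with panobinostat and 8.13, 8.38 and 8.29 CPM in vehicle. These values were tight in both groups and did not overlap, and the fold change was 1.88 (log2 0.91 ± 0.07, edgeR adjusted p = 1.66e-09). TAGLN, which encodes an actin-bundling calponin-family protein, had 3.20, 3.45 and 3.13 CPM with panobinostat and 1.86, 1.65 and 1.24 CPM in vehicle. The vehicle libraries varied more than the panobinostat libraries, and the ranges were still separate (log2 1.04 ± 0.15, edgeR adjusted p = 6.06e-06). CNN1, calponin, which binds actin and dampens myosin ATPase, had 56, 45 and 42 counts in the panobinostat libraries and 1, 0 and 3 counts in the vehicle libraries. The exact 95% Poisson intervals of those vehicle counts were 0.0253 to 5.57, 0 to 3.69 and 0.619 to 8.77. CNN1 was thus at or under the level of 3 counts in the vehicle libraries and at 1.36 ± 0.166 CPM (SD, n = 3) with panobinostat. The ratio of its summed counts per total counts, 143 against 4, was 38.5 (exact 95% interval 14.7 to 143, for counting error only), and edgeR gave an adjusted p of 4.39e-09. Per length of transcript it was the least abundant of the 10 genes in both groups.

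MYL9, the regulatory light chain of smooth muscle and nonmuscle myosin II, rose. It had 12.5, 11.8 and 12.2 CPM in the panobinostat libraries and 7.85, 7.54 and 6.25 CPM in the vehicle libraries. The lowest panobinostat library lay above the highest vehicle library, and the fold change was 1.69 (log2 0.76 ± 0.09, edgeR adjusted p = 3.76e-07). VCL, vinculin, links integrin adhesions and cadherin junctions to actin, and it rose as well, with the groups far apart. It had 279, 272.5 and 279 CPM with panobinostat and 150, 148 and 143 CPM in vehicle, a fold change of 1.88 (log2 0.91 ± 0.04, edgeR adjusted p = 2.75e-13).

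The tropomyosins, which lie along the actin filament and control access to it, were both lower, and for neither did the groups overlap. TPM2, beta-tropomyosin, had 58.0, 60.1 and 61.4 CPM with panobinostat and 171, 171 and 162 CPM in vehicle. This was the largest fall among the 10 genes (log2 -1.49 ± 0.04, edgeR adjusted p = 2.61e-15) and placed TPM2 at percentile 6.06 of the log2 fold changes of all tested genes. TPM1, alpha-tropomyosin, had 67.7, 65.4 and 67.7 CPM with panobinostat and 98.8, 99.9 and 99.8 CPM in vehicle (log2 -0.57 ± 0.04, edgeR adjusted p = 7.25e-10). Both genes produce several isoforms by splicing, which gene counts cannot separate, so a change in the muscle forms and one in the cytoskeletal forms cannot be told apart.

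CALD1, caldesmon, which binds actin, tropomyosin and myosin and inhibits the motor, fell with the tropomyosins. It had 144, 145 and 127 CPM in the panobinostat libraries and 208, 217 and 233 CPM in the vehicle libraries. Panobinostat replicate 3 was the lowest of the 6 libraries and vehicle replicate 3 the highest (log2 -0.66 ± 0.05, edgeR adjusted p = 1.13e-08). GSN, gelsolin, which severs and caps actin filaments, was lower, each panobinostat library being below each vehicle library. It had 406, 389.55 and 427 CPM with panobinostat and 660, 648 and 604 CPM in vehicle (log2 -0.65 ± 0.04, edgeR adjusted p = 2.07e-10).

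**Figure D2:**
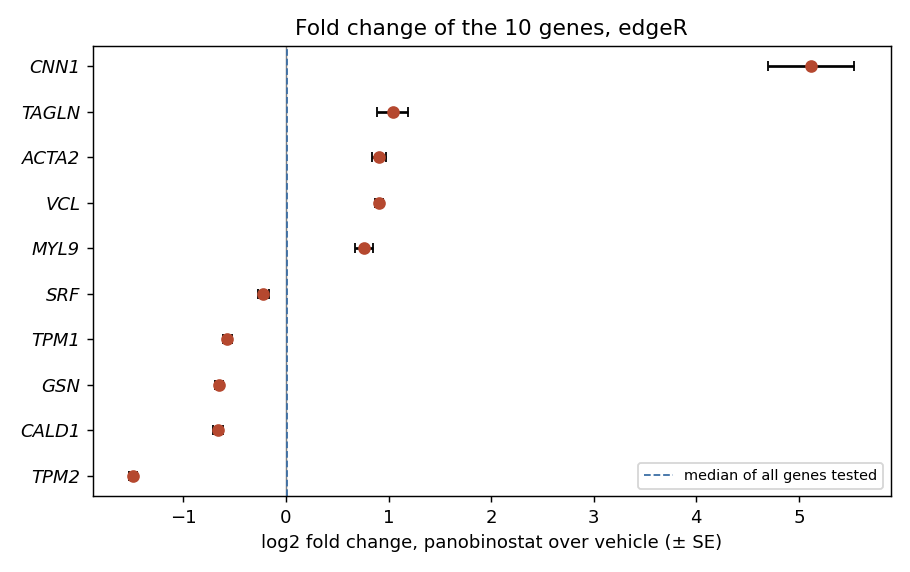
Log2 fold change of panobinostat over vehicle (x axis, points, with SE as bars, edgeR) for the 10 genes, ordered by size; the dashed line is the median of all 15499 tested genes. CNN1 stands at 5.12, TAGLN, ACTA2, VCL and MYL9 between 0.76 and 1.04, and SRF, TPM1, GSN, CALD1 and TPM2 between -1.49 and -0.22.

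The order of the levels changed as well. Levels were taken per kilobase of the longest transcript marked principal in GENCODE 29, which need not be the authors' annotation. GSN was highest in both groups (153 ± 7.01 CPM per kb with panobinostat and 240 ± 11.2 CPM per kb in vehicle, SD, n = 3 each). With panobinostat TPM1 (63.8 ± 1.29 CPM per kb), VCL (50.4 ± 0.683), TPM2 (43.0 ± 1.21) and CALD1 (33.7 ± 2.38) followed. In vehicle the order after GSN was TPM2 (121 ± 3.75 CPM per kb), TPM1 (94.9 ± 0.562), CALD1 (53.3 ± 3.10) and VCL (26.8 ± 0.707). VCL was thus above TPM2 and CALD1 with panobinostat and below them in vehicle. ACTA2 was above SRF with panobinostat (11.5 ± 0.301 against 9.50 ± 0.437 CPM per kb) and below it in vehicle (6.13 ± 0.0919 against 11.1 ± 0.392 CPM per kb). Without division by length ACTA2 was below SRF in both groups (15.5 against 39.9 CPM with panobinostat and 8.27 against 46.6 CPM in vehicle). MYL9, TAGLN and CNN1 took the last places in both groups. No neighbours in these orders had overlapping ranges over the libraries of a group. Different transcript lengths would move these levels, but not the fold changes.

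A ratio of 2 genes within a library does not depend on how libraries are scaled against each other, and 7 ratios were compared. ACTA2 made up 0.0102, 0.00961 and 0.0101 of the counts of ACTB, the cytoplasmic beta-actin, in the panobinostat libraries and 0.0034, 0.00346 and 0.00366 in the vehicle libraries. ACTA2 thus gained 2.84-fold on ACTB, which itself fell (log2 -0.60), although ACTB counts remained far higher. ACTG1, the other cytoplasmic actin, rose 1.14-fold, and the ratio of ACTA2 to it was not among the 7. The ratio of TPM1 to TPM2 was 1.17, 1.09 and 1.1 with panobinostat and 0.579, 0.584 and 0.617 in vehicle, so that TPM1 counts exceeded TPM2 counts only in the panobinostat libraries. Ratios of TAGLN to its widely expressed paralog TAGLN2 (1.97-fold), of MYL9 to the essential light chain MYL6 (1.73-fold) and of CNN1 to the nonmuscle calponin CNN3 (log2 difference 5.75 with 0.5 added to each count, and 3.71 with 5 added, since CNN1 had 0 to 3 counts in vehicle) were higher too. That of TPM1 to TPM4 was lower (0.846-fold). The groups did not overlap in these 6 ratios, and each gave an exact two-sided permutation p of 0.1, the smallest that 3 against 3 libraries allow (0.117 after Benjamini-Hochberg adjustment over the 7 ratios), so none could pass 0.05. The ratio of GSN to CAPG, a capping protein of the gelsolin family, was 11.3, 11.7 and 12.2 with panobinostat and 12.3, 12.5 and 11.6 in vehicle. These ranges overlapped (exact permutation p = 0.4).

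**Figure D3:**
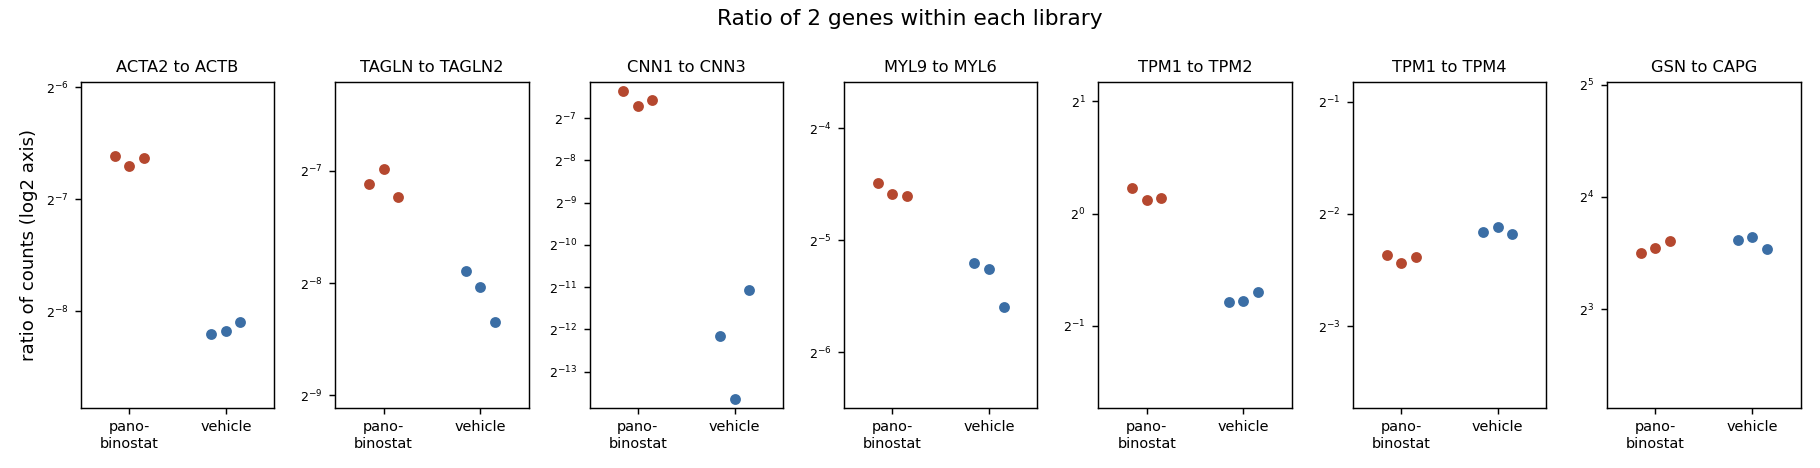
Ratio of the counts of 2 genes in each library (log2 axis, separate scale per panel) for the 7 pairs; points are the 3 panobinostat and 3 vehicle libraries. The groups are separate in every panel but GSN to CAPG, and the ratio of TPM1 to TPM2 lies above 1 only with panobinostat.

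ACTA2, TAGLN and VCL overlap exons of protein-coding genes on the other strand in GENCODE 29, and ACTA2, TPM1 and GSN those of antisense transcripts. The sources used here do not say whether the counting used strand. ACTA2 shares 380 of its 2976 exonic bases with FAS, which had 518, 512 and 436 counts with panobinostat and 359, 366 and 432 in vehicle. TAGLN shares 446 of 3917 exonic bases with PCSK7, which had 1057, 1115 and 1036 counts with panobinostat and 1526, 1339 and 1356 in vehicle, against 101 to 126 and 48 to 72 counts of TAGLN. VCL shares 1109 of 9992 bases with AP3M1, whose counts were 2387, 2422 and 2080 with panobinostat and 3013, 2763 and 3092 in vehicle. PCSK7 and AP3M1 thus had fewer counts where TAGLN and VCL had more, while FAS moved with ACTA2. GSN-AS1, antisense to GSN, had 0, 1 and 0 counts with panobinostat and 6, 8 and 7 in vehicle. The part of these neighbours in the counts was not tested. Actin isoforms, and MYL9 with MYL12A and MYL12B, share long stretches of coding sequence, so the split of their reads is uncertain.

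Cofactors that direct SRF divided. Their counts, and those of the lists below, stand against 41.8% called higher and 41.0% called lower among all tested genes. Of 12 genes in this list 11 were tested, 6 rose, 2 fell and 3 did not pass, with a median log2 fold change of 0.23, and 1 of the 6, MYOCD, passed the filter on low counts only through panobinostat libraries. MKL1 and MKL2, the myocardin-related factors, stood at 19.99 ± 1.11 and 65.4 ± 1.24 CPM with panobinostat, against 17.1 ± 1.48 and 47.0 ± 1.05 CPM in vehicle (SD, n = 3), and both rose. The rise of MKL1 (log2 0.23 ± 0.07, edgeR adjusted p = 0.00856) was lost without panobinostat replicate 2 (0.18) or vehicle replicate 2 (0.19). MYOCD, myocardin, the muscle-restricted coactivator, had 66 counts over the panobinostat libraries and 0 in vehicle, at least 7.92-fold higher when each vehicle library is put at its limit of 3 counts. It remained near the limit of detection, at 0.636 ± 0.185 CPM. ABRA, an actin-binding activator of the pathway in striated muscle, had 0 counts.

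Among the ternary complex factors ELK1 rose 1.54-fold, to 141 ± 4.36 CPM with panobinostat against 92.0 ± 5.30 CPM in vehicle. ELK3 (98.7 ± 6.96 CPM with panobinostat and 93.5 ± 3.54 CPM in vehicle) and ELK4 (156 ± 9.36 and 159 ± 3.75 CPM) did not pass. The LIM-domain cofactors split. FHL2 and CSRP1 rose 1.74-fold and 1.52-fold, CSRP2 fell (log2 -0.50 ± 0.06), and TGFB1I1, a LIM protein of adhesions known as Hic-5, fell to 5.43 ± 0.554 CPM with panobinostat, against 25.04 ± 0.933 CPM in vehicle. SCAI, a repressor of the myocardin-related factors, stood at 17.8 ± 2.67 and 18.2 ± 1.76 CPM and did not pass.

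The other smooth muscle contractile genes were pulled both ways. Of 16 listed 12 were tested, and of these 9 rose and 3 fell, with a median of 0.78. However, LMOD1, DES, SYNPO2 and ITGA8 passed the filter only through panobinostat libraries and HSPB6 only through vehicle libraries. With the filter of 5 CPM in 3 libraries 4 rose and 2 fell, and the median was 0.40. SYNPO2, an actin-bundling protein, rose 19.6-fold to 5.15 ± 0.357 CPM against 0.258 ± 0.0691 CPM in vehicle. DES, desmin, the muscle intermediate filament, had 292 counts with panobinostat and 2 in vehicle, a ratio of 157 (exact 95% interval 43.1 to 1300). SMTN, smoothelin, fell to 13.96 ± 0.506 CPM with panobinostat against 44.5 ± 3.88 CPM in vehicle, and SYNM, synemin, which pairs with desmin, to 46.1 ± 1.13 against 129 ± 1.52 CPM. MYH11, the myosin heavy chain that defines differentiated smooth muscle, was not tested, with 23 counts in the panobinostat libraries and 3 in vehicle. PLN and KCNMB1 had 1 count each with panobinostat and 0 in vehicle.

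**Figure D4:**
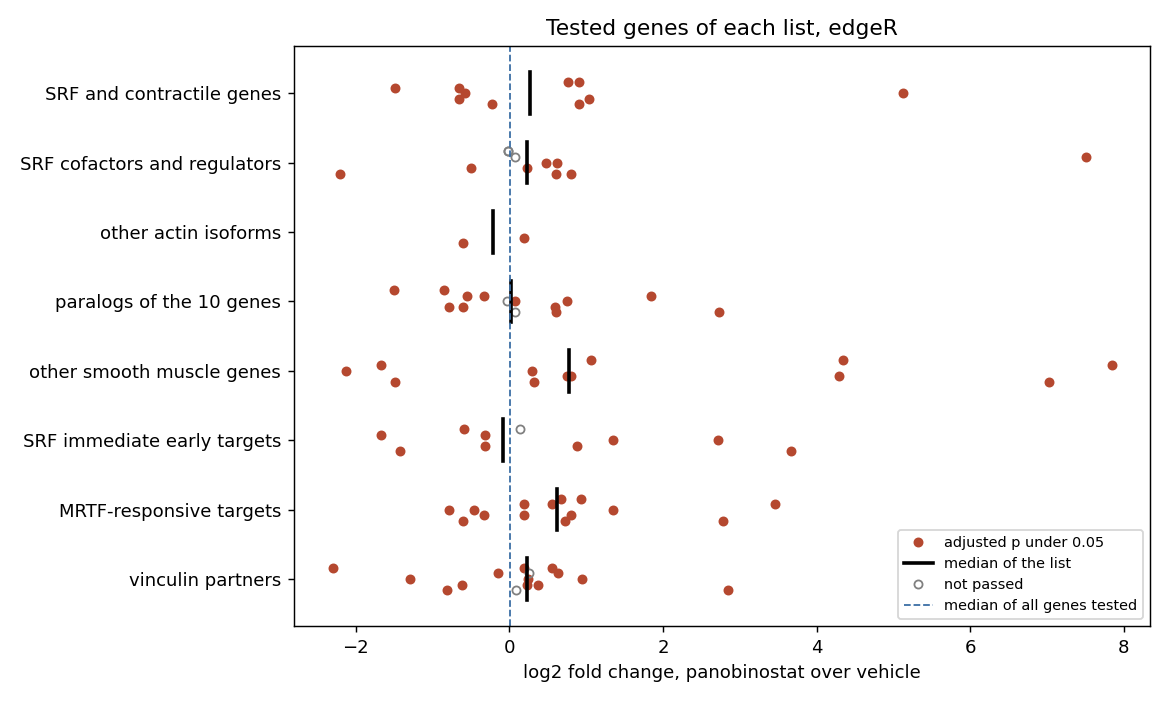
Log2 fold change of panobinostat over vehicle for the tested genes of 8 lists, the 10 genes among them (filled points passed an adjusted p of 0.05 in edgeR, open points did not), with the median of each list as a black bar and that of all genes as a dashed line. Rises and falls stand side by side in each; the fitted values of MYOCD (7.51) and ITGA8 (7.84), with 0 counts in vehicle, depend on the fit and are no bounds.

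Paralogs of the 10 genes also divided. Of 15 listed 14 were tested, with 6 higher, 6 lower and 2 not passed, and a median of 0.02. CNN2, the calponin of nonmuscle cells, rose 1.69-fold and CNN3 fell (log2 -0.55 ± 0.04). MYL12A and MYL12B, the nonmuscle counterparts of MYL9, rose 1.52-fold and 1.51-fold, close to the fold of MYL9 itself. The gelsolin family split. SVIL, supervillin, fell to 92.7 ± 1.16 CPM with panobinostat against 262 ± 4.48 CPM in vehicle. FLII, the flightless homolog, and CAPG fell by 0.85 and 0.60 on the log2 scale. AVIL and SCIN, at low levels, rose 6.65-fold and 3.6-fold. They stood at 3.99 ± 0.665 and 2.68 ± 0.343 CPM with panobinostat, against 0.605 ± 0.144 and 0.747 ± 0.269 CPM in vehicle. TPM4 was lower (log2 -0.33 ± 0.03) along with TPM1 and TPM2. TPM3, named after its value was seen, stood at 593 ± 7.88 and 562 ± 15.4 CPM, a difference (log2 0.08 ± 0.03, edgeR adjusted p = 0.0464) that did not pass without a filter on low counts (0.03), without any 1 of the panobinostat replicates (0.07 to 0.09) or without vehicle replicate 1 (0.05) or 2 (0.04). Of the other actins, ACTB fell to 1564 ± 27.6 CPM with panobinostat against 2363 ± 85.0 CPM in vehicle, ACTG1 rose 1.14-fold, and ACTA1, ACTC1 and ACTG2, the muscle isoforms, had too few counts to be tested.

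Immediate early genes driven by SRF with the ternary complex factors divided. Of 10 tested 4 rose, 5 fell and 1 did not pass, with a median of -0.08, which was 0.04 with upper quartile scaling. JUNB rose to 171 ± 9.23 CPM with panobinostat against 66.9 ± 2.53 CPM in vehicle, EGR2 6.61-fold and IER2 1.85-fold, and ARC 12.7-fold, to 10.3 ± 0.971 CPM with panobinostat against 0.804 ± 0.171 CPM in vehicle. EGR3 fell to 13.1 ± 0.443 CPM with panobinostat against 41.7 ± 1.30 CPM in vehicle, FOSB to 4.37 ± 0.202 against 11.7 ± 0.862 CPM, and NR4A1, EGR1 and MCL1 by 0.59, 0.31 and 0.31 on the log2 scale. FOS stood at 9.41 ± 1.20 and 8.49 ± 1.03 CPM and did not pass.

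Cytoskeletal and matrix genes that respond to the myocardin-related factors numbered 10 higher and 4 lower among 14 tested, with a median of 0.62. Among all tested genes 41.8% were called higher and 41.0% lower, with a median of 0.01. The list has 15 genes, of which FILIP1L was not tested and ACTB, ACTG1, FLNA, JUNB, TPM4 and ZYX also stand in another list. PDLIM5, a PDZ and LIM protein of actin bundles, rose 6.88-fold to 577 ± 24.4 CPM against 83.9 ± 3.77 CPM in vehicle, and CTGF, a matricellular protein, 11-fold. VIM, ACTB, ANKRD1 and TPM4 fell, with log2 changes of -0.78, -0.60, -0.46 and -0.33.

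Genes of proteins found beside vinculin at adhesions rose in 8 and fell in 5 of 15 tested cases, with a median of 0.23. TES, testin, a LIM protein that binds zyxin, rose to 329 ± 15.8 CPM with panobinostat against 45.4 ± 1.36 CPM in vehicle. TLN2, a talin, which binds and opens vinculin, rose 1.94-fold, and VASP, an actin polymerase at adhesions, 1.55-fold. SORBS3, vinexin, a direct partner of vinculin, fell to 6.57 ± 0.250 CPM with panobinostat against 32.5 ± 3.69 CPM in vehicle. PARVA, parvin alpha, and ACTN1, an alpha-actinin, fell by 1.29 and 0.81 on the log2 scale. ACTN4, another alpha-actinin and the more abundant, rose (log2 0.38 ± 0.04). It stood at 1273 ± 35.1 CPM with panobinostat against 977 ± 39.9 CPM in vehicle. VCL thus rose along with 8 genes of this list, while 5 fell.

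Markers of other cell types moved in the same libraries. So did most tested genes, of which 41.8% were called higher and 41.0% lower. Fibroblast and pericyte markers rose in 8 and fell in 2 of 11 tested cases, and their summed level was lower, at 389 to 413 CPM with panobinostat and 978 to 1141.5 CPM in vehicle, which CSPG4, a melanoma surface proteoglycan as well as a pericyte marker, dominates (299 ± 14.03 against 1054 ± 90.8 CPM). COL1A1 rose to 56.1 ± 1.57 CPM with panobinostat against 1.001 ± 0.234 CPM in vehicle. Skeletal and cardiac muscle markers had 5 of 17 genes tested, 4 of them higher, with summed levels of 54.3 to 56.6 CPM with panobinostat and 15.7 to 16.7 CPM in vehicle, mostly TNNT1 (46.2 ± 0.519 against 11.3 ± 0.723 CPM). MYF6, MYH2 and TNNI2 were at 0 in the 6 libraries. Markers of blood, endothelial and epithelial cells had 7 of 12 genes tested, with 6 higher and 1 lower and summed levels of 333 to 353 CPM with panobinostat and 174 to 180 CPM in vehicle, mostly KRT18 (302 ± 8.999 against 158 ± 3.86 CPM). Of the melanocytic markers 2 (PMEL and TYRP1) rose and 4 fell of 6 tested, with summed levels of 645 to 709 CPM with panobinostat and 986 to 1104 CPM in vehicle. TYRP1, with 47 counts in panobinostat libraries and 26 in vehicle, lost its call with DESeq2 (adjusted p = 0.0991) and without panobinostat replicate 1 (0.136), panobinostat replicate 3 (0.0687) or vehicle replicate 1 (0.181). Several of the higher markers passed the filter on low counts only through panobinostat libraries, so they could be counted only if they were high there: TYRP1, MYOD1, TNNI3, COL1A2, COL3A1, THY1, CD14, PECAM1 and EPCAM. The part of these movements in the levels of the contractile genes was not tested.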

How the data were processed

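The authors deposited raw counts, whole numbers of reads per gene symbol, for the 6 libraries. STAR is named in the deposited table's name. Its version, build, annotation and use of strand: not given in the sources used here. The table's 92 spike-in lines held 0 counts and were left out. Gene symbols turned into dates stood on 28 lines (up to 0.221% of the counts), which stayed in the fit unnamed. The labelled dose set the group of each library. Replicate pairs differed by 1.902 to 9.139 chi-square units per degree of freedom, more than sampling noise gives, and no pair was identical.

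All genes were fitted together: filterByExpr, TMM scaling, estimateDisp, glmQLFit (robust) and glmQLFTest of edgeR 4.0.16 in R 4.3.3, with Benjamini-Hochberg adjustment over 15499 genes. CPM use TMM-scaled library sizes. Alternatives used limma 3.58.1, DESeq2 1.42.0, other scalings and filters, a replicate block and leaving out each library. Steps were checked on simulated counts in which only a small part of the genes changed, evenly up and down. In the data 82.8% of tested genes were called, so that check cannot show how the scaling holds under so broad a change. Intervals and floors cover counting error only. Ratios used exact permutation tests in scipy 1.17.1.

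The 10 genes and the 12 other lists were chosen with earlier results of these data known. Beyond the 10 genes, the text names from each list the 3 called genes of smallest adjusted p in either direction, genes of lists of 12 or fewer, genes of the ratios, and genes with too few counts or needed for a stated limit, the last chosen after their values were seen. The text leaves out 1 list and several genes that the rule would name. RefSeq promoters were matched by current or older symbol.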

Additional observations from a re-analysis of the deposited data

How the results depend on the processing

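Over 14 alternatives the 10 genes kept their direction wherever they were tested, with 137 of 138 values on the same side of the threshold. The exception was SRF with upper quartile scaling (-0.10). The counts of 5 higher and 5 lower held except with upper quartile scaling, where 4 were lower, and with the filter of 5 CPM in 3 libraries, where 3 were higher because TAGLN and CNN1 were not tested. There the median of the 10 genes was -0.30. Log2 fold changes of SRF ran from -0.27 to -0.10, of CNN1 from 4.61 to 6.30 and of TPM2 from -1.53 to -1.37. Titles of both groups end in the same numbers, but same-numbered libraries did not deviate together (correlations -0.20, -0.16 and -0.37), and a replicate block left 5 higher and 5 lower, while TPM3 (0.08) and TYRP1 (0.95) lost their calls. The 7 ratios kept their direction with 5 added to each count and without any 1 library. Allowing 1 base to differ raised the CArG counts to 3 windows of the 10 genes and 2854 windows of all genes.

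Differences near 0 turned sign. SCAI was 0.10 with upper quartile scaling, 0.07 with the 5 CPM filter and -0.11 to 0.09 leaving out single libraries, and ELK4 was 0.10, 0.07 and -0.07 to 0.02. MYL6 was 0.09 with upper quartile scaling, where it passed, and 0.06 with the 5 CPM filter. Leaving out single libraries, FAP ran from -0.38 to 0.02. The share of higher calls among all calls was 57.3% under upper quartile scaling and 50.5% under TMM. ELK3 passed with upper quartile scaling (0.20), the 5 CPM filter (0.17) and without panobinostat replicate 3 (0.13). FOS passed with upper quartile scaling (0.26) and without panobinostat replicate 2 (0.24) or vehicle replicate 3 (0.23). TAGLN2 passed with upper quartile scaling (0.19) and the 5 CPM filter (0.17). The cause was not tested. CNN1 and MYOCD, with 0 to 3 counts in a vehicle library, limit what depth can show.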
